A study of Homo sapiens with 3 samples.

Results

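The V-ATPase and lysosomal genes described here are 45 named genes, 18 for subunits or accessory proteins of the vacuolar proton pump and 27 for lysosomal enzymes, membrane proteins, luminal proteins and their transcription factors. They were taken by gene name from a table of 50868 genes, all 45 were found, and each had 1 identifier. AGS, an established line from a human stomach adenocarcinoma, was kept for 48 h in 12 µM SFA, in 18 µM SFE or in DMSO as the control, and its RNA was sequenced. Each group is 1 library of the same line in medium with serum, DMSO is the only control, and the labels do not spell out the code names SFA and SFE. The doses differ, so values for SFA and SFE stand side by side and are not compared with each other, and both are set against the same DMSO library. There were no replicates, so no spread among cultures is known and no test was possible. Unless said otherwise, 3 values in a row are in the order DMSO, SFA, SFE, and 2 ratios are SFA and SFE over DMSO, each with its 95% counting interval where given.

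Lysosomes are acid compartments in which proteins, lipids, sugars and nucleic acids are broken down. Their acid is made by the V-ATPase, whose V1 sector in the cytosol splits ATP and turns a rotor that drives protons through the V0 sector in the membrane. Many newly made enzymes reach the lysosome through the mannose 6-phosphate route. Many genes of lysosomal proteins share an E-box-like DNA element, the CLEAR element, read by TFEB and TFE3. Both factors are controlled largely by phosphorylation and entry into the nucleus, which RNA levels do not measure.

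The libraries held 18767232, 13639844 and 13644676 counts. The 45 genes took 0.593%, 0.682% and 0.645% of them. Epithelial identity of the libraries rested on KRT8, KRT18 and KRT7, at 118 FPKM or more in each (fragments scaled to gene length and library size). CDH1, EPCAM and KRT19, also on the list of 8 epithelial markers, were at most 0.336 FPKM. The summed FPKM of that list was 1075, 682.7 and 682.7. Of 9 macrophage and leukocyte markers, whose cells are rich in lysosomes, none reached 1 FPKM, and AIF1, CD163, CD3E, MRC1 and TYROBP were listed at 0 in all 3 libraries. Of 8 fibroblast markers 4 reached 1 FPKM, with summed values of 30.9, 16.8 and 19.9 FPKM, while COL1A2 and PDGFRA were listed at or near 0. The epithelial and fibroblast sums were lower in both treated libraries, while KRT7 (1.37 and 1.28 times DMSO), CLDN4 (1.33 and 1.16) and the fibroblast marker THY1 (1.51 and 1.69) were above DMSO, and their part in the values below was not tested.

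Members were compared in DMSO per length of RNA. The length behind the deposited FPKM equalled, within 0.1%, the summed length of all distinct annotated exons of a gene in GENCODE 29 for 89.7% of genes, so that overlapping exons of alternative transcripts count repeatedly. That length exceeded the non-overlapping exon length in 42 of the 45 members. The median factor over the 45 was 1.67, and the highest was 3.91 for SMPD1. FPKM therefore understates heavily annotated genes relative to others, while ratios of a gene between libraries are untouched. Levels per kilobase of non-overlapping exon are given beside it where genes are ranked.

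PSAP, the precursor of the saposins that help enzymes reach their lipids, had the highest level in DMSO at 225.0 FPKM. CTSD, an aspartic protease, followed at 109.9 FPKM, then the proton-carrying ring subunit ATP6V0C at 88.6 FPKM and the rotor subunit ATP6V1F at 75.8 FPKM. The first 6 places, which also hold ATP6V0E1 and CD63, were the same with either length. Below them 9 members moved by 5 places or more: SMPD1 stood at 3.49 FPKM, place 38, and at 13.64 per kilobase of non-overlapping exon, place 26, and ATP6V0B moved from place 23 to 13. ATP6AP2 and SCARB2 moved the other way, from 21 to 40 and from 31 to 43, and their deposited lengths did not match GENCODE 29. The same held for CTSD, GLA, PPT1, TPP1, ATP6V0E2, ATP6V1H and MANBA, or 9 of the 45 members in all, while 36 matched. At the other end, ATP6V1E2 stood at 0.800 FPKM and MANBA, a mannosidase, at 0.695. MANBA did not reach 1 FPKM in any library, so 44 of 45 members entered the counts below, and ATP6V1E2 entered only through its treated libraries.

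**Figure D1:**
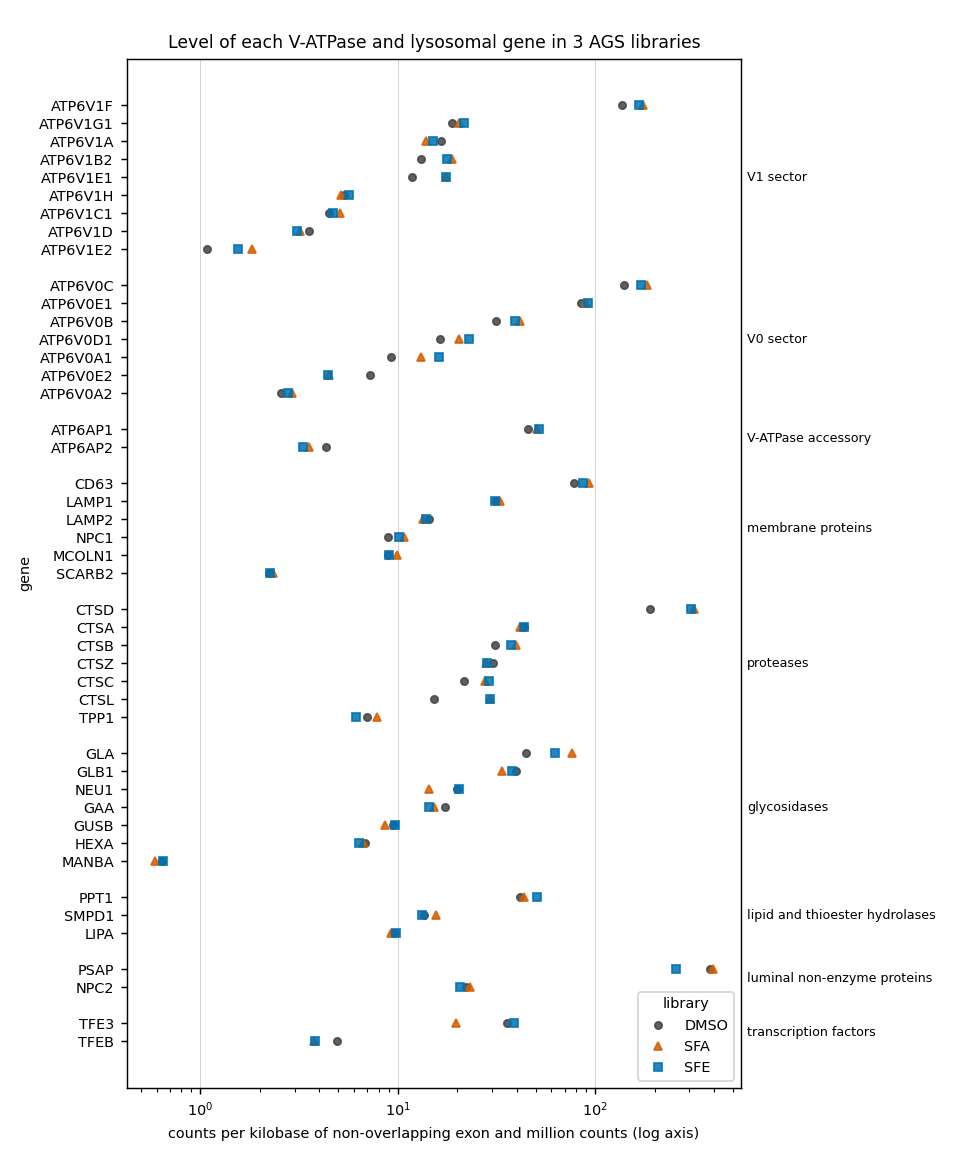
Level of each of the 45 genes in the DMSO (circles), SFA (triangles) and SFE (squares) libraries, as counts per kilobase of non-overlapping exon scaled to library size, on a log axis, with 1 library per group and genes grouped by role. PSAP and CTSD lie at the top of the range and MANBA at the bottom, and the libraries of a gene lie close together relative to the distance between genes.

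**Figure D2:**
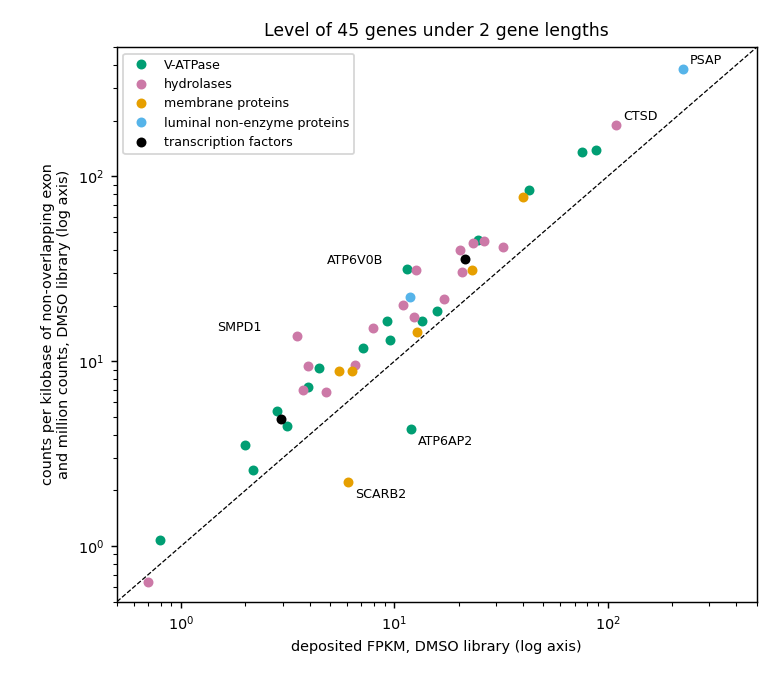
Deposited FPKM (horizontal) against counts per kilobase of non-overlapping exon scaled to library size (vertical) in the DMSO library for the 45 genes, both on log axes, with the line of equality dashed. All but 3 genes lie above the line, SMPD1 and ATP6V0B far above it and ATP6AP2 and SCARB2 far below.

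Few of these genes differed from DMSO by much, and none by 2-fold, which 2.71% (SFA) and 2.38% (SFE) of all genes did. A gene was called at a difference of at least 1.5-fold in log2(FPKM + 1), a scale that understates changes of low genes. With SFA, 3 members were higher (CTSL, CTSD and GLA), or 6.82% of 44, against 5.36% of all 11680 genes at 1 FPKM or more in a library. TFE3 was the 1 member lower, against 4.67% of all genes. With SFE, 3 were higher (CTSL, CTSD and ATP6V0A1), against 5.34%, and 0 lower, against 3.48%. Under median-ratio scaling, for which shares of all genes called are not given, the SFE split was 3 higher and 2 lower, the latter ATP6V0E2 and PSAP. Because the genes were proposed with results of these libraries in view, these shares describe the set and support nothing.

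The median difference over the 44 members was 0.10 with SFA and 0.05 with SFE on the log2(FPKM + 1) scale, against 0.01 and 0.03 over all genes. In each comparison 28 of 44 members lay above 0 and 16 below, against 51.4% above and 48.6% below of all genes with SFA and 55.2% and 44.8% with SFE. Under median-ratio scaling the SFE split was 22 and 22, and that of SFA did not move. The medians over all genes moved too, to −0.02 with SFA and −0.03 with SFE. Shares of all genes above 0 at that scaling are not given. Counting error alone spanned no difference for 13 members with SFA and 17 with SFE. The 95% counting interval of the ratio of counts over library totals lay above 1 for 22 members and below 1 for 9 with SFA, against 27.6% and 26.8% of all genes. With SFE it lay above for 20 and below for 7, against 28.9% and 22.8%. Whether an interval leaves out 1 also depends on the counts of a gene, and these shares are not matched for counts. How much 2 cultures of 1 group would differ is not in these intervals.

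**Figure D3:**
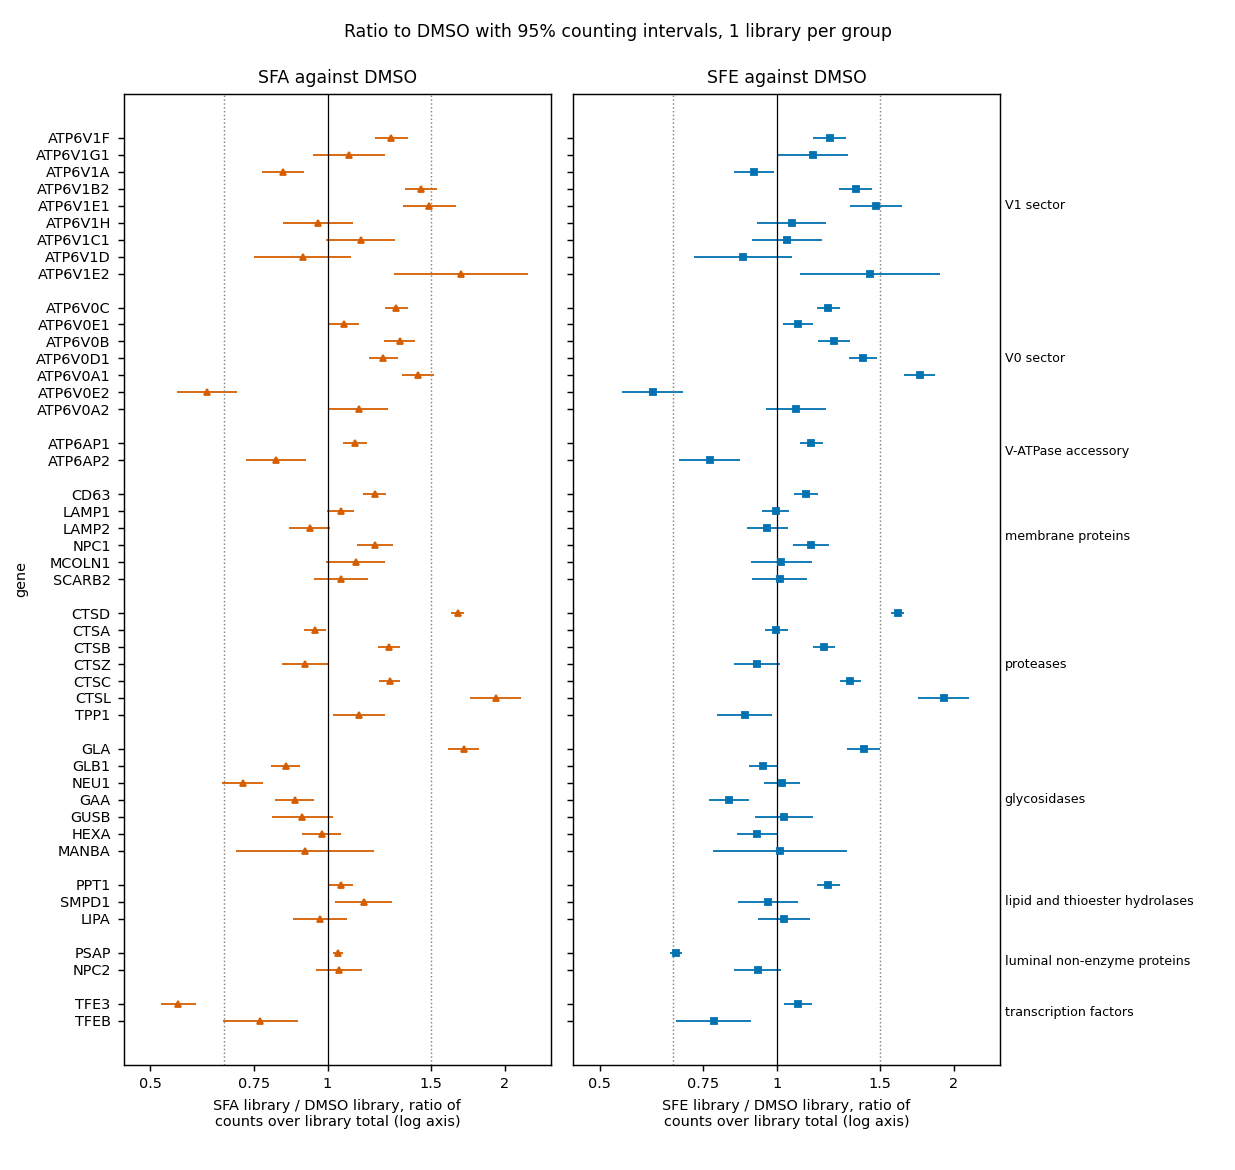
Ratio of the SFA library (left) and the SFE library (right) to the DMSO library for each of the 45 genes, as counts over library totals on a log axis, with bars for 95% counting intervals and dotted lines at 1.5-fold. CTSL lies highest in both panels at 1.93 and 1.92. TFE3 at 0.557 is lowest with SFA, and ATP6V0E2 at 0.616 is lowest with SFE.

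Promoters of the 5 members called in either comparison are shown because lysosomal genes are known for shared elements near their start. That of MCOLN1 was added, after the matches were seen, as an example with the CLEAR element. They come from RefSeq on GRCh38.p14, 5′ to 3′ on the gene's strand, with 250 bases before the annotated start and 50 from it on. Capitals mark matches on either strand to CACGTG (the E-box core), to TCACGTGA (a longer form that contains it and matches the CLEAR element), or to TGACNNNGC (the core of the antioxidant response element bound by NRF2). The windows are CTSD at chr11:1763878-1764177, minus strand; CTSL at chr9:87725869-87726168, plus strand; GLA at chrX:101407876-101408175, minus strand; ATP6V0A1 at chr17:42458628-42458927, plus strand; TFE3 at chrX:49043308-49043607, minus strand; and MCOLN1 at chr19:7522374-7522673, plus strand.
CTSD: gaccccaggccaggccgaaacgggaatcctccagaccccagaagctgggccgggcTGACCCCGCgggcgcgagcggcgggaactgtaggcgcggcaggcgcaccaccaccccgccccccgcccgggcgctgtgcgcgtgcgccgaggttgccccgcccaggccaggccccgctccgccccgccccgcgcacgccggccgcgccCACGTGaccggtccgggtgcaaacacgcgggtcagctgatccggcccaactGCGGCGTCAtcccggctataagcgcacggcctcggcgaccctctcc
CTSL: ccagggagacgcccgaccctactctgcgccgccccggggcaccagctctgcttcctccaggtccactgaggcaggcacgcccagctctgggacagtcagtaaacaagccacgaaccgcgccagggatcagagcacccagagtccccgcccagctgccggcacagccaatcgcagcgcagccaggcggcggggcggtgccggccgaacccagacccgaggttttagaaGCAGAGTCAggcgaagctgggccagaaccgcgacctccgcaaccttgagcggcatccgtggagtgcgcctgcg
GLA: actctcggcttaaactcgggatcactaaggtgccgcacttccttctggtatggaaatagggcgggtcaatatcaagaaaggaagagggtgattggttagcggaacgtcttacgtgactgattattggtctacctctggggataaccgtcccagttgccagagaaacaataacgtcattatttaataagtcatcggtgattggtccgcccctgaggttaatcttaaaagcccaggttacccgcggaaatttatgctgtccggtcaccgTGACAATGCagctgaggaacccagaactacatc
ATP6V0A1: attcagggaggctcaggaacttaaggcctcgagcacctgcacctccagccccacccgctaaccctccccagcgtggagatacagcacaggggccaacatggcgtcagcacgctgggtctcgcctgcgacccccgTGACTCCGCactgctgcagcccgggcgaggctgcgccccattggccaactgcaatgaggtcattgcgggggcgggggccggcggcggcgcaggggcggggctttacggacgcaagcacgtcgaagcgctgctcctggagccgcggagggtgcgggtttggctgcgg
TFE3: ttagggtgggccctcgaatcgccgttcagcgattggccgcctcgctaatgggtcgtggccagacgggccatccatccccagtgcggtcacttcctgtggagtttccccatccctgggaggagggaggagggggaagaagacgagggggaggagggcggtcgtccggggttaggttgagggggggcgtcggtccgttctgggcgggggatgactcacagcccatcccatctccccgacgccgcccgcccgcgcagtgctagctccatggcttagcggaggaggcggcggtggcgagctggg
MCOLN1: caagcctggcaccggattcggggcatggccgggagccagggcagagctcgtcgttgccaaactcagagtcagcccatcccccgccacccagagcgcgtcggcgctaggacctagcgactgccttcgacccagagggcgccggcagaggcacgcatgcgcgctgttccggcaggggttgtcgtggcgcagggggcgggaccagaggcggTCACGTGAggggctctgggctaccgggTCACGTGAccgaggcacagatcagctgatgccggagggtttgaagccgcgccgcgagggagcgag
In the CTSD window the E-box core spans bases 204 to 209, with base 251 the annotated start. MCOLN1 holds 2 separate TCACGTGA matches, from base 209 and from base 236. The TFE3 window holds no match. CTSL, GLA and ATP6V0A1 show matches to TGACNNNGC only, at bases 228 to 236, 268 to 276 and 135 to 143.

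Promoters were found for 34 of the 45 genes. CACGTG was present for 11 of the 34 genes, or 32.4%, against 13.1% of the 7462 matched genes at 1 FPKM or more. By promoter it was in 12 of the members' 50, against 7.26% of all 35116. TCACGTGA was present for 6 genes (ATP6V0D1, ATP6V1G1, CTSA, GAA, LAMP1 and MCOLN1), against 2.26% of those genes, and by promoter in 6 of 50, against 0.980%. TGACNNNGC was present for 17 of the 34 genes, against 19.9%, and by promoter in 17 of 50, against 13.3%. Against DMSO the ratios of the 6 genes with TCACGTGA lay between 0.879 (GAA) and 1.24 (ATP6V0D1) with SFA, and between 0.831 and 1.40, the same genes, with SFE. A match is a description of letters, not a bound site.

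The V-ATPase genes of the set lay mostly above DMSO by small amounts. Of 18 genes, 13 lay above 0 with SFA and 14 with SFE (51.4% and 55.2% of all genes), with medians of 0.15 and 0.19 in log2(FPKM + 1). Under median-ratio scaling the medians were 0.12 and 0.11, against −0.02 and −0.03 over all genes. Over the V-ATPase genes at 5 FPKM or more in a library the medians were 0.32 and 0.29, against 0.03 and 0.04 over all genes at that filter. ATP6V0A1, at 4.43 FPKM in DMSO, passed that filter only through the treated libraries, where it was higher. Summed over the 18 genes, the share of counts was 0.147%, 0.175% and 0.177%, a ratio of 1.19 (95% counting interval 1.17 to 1.21) and of 1.21 (1.19 to 1.23). Counting intervals lay above 1 for 11 of 18 genes and below 1 for 3 in each comparison. Of all genes, not matched for counts, 27.6% and 28.9% lay above and 26.8% and 22.8% below. With SFA 0 of the 18 genes was called, where 5.36% of all genes were higher and 4.67% lower. A pseudocount of 0.1 gave 1 higher (ATP6V1E2) and 1 lower (ATP6V0E2), and shares of all genes at that setting are not given. ATP6V1E2, at 0.800 FPKM in DMSO, reached 1 FPKM only in the treated libraries. It is nonetheless among the genes above 0 and in the medians over the 18. With SFE 1 was called, ATP6V0A1, where 5.34% of all genes were higher.

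In the V1 sector, ATP6V1A and ATP6V1B2, the partners of the catalytic ring, lay on opposite sides of DMSO. ATP6V1A, the subunit that holds the ATP-splitting site, stood at 13.5, 11.4 and 12.4 FPKM (ratios 0.840, interval 0.775 to 0.910, and 0.915, 0.846 to 0.990). ATP6V1B2 stood at 9.503, 13.7 and 12.95 FPKM (1.44, 1.35 to 1.54, and 1.36, 1.28 to 1.45). Both treated libraries were thus below DMSO for the one and above it for the other. ATP6V1E1, a peripheral stalk subunit (chromosome 22, 17592136 to 17628818), stood at 7.13, 10.6 and 10.5 FPKM, which is 1.49 times DMSO (1.34 to 1.65) with SFA and 1.48 (1.33 to 1.64) with SFE. It lay just under the 1.5-fold limit in both treated libraries. Its rare relative ATP6V1E2 had 107, 131 and 112 counts (1.68, 1.29 to 2.20, and 1.44, 1.09 to 1.89), and overlaps RHOQ, listed at 80, 43 and 252 counts. ATP6V1F was 1.28 and 1.23 times DMSO, and the counting intervals of ATP6V1C1, ATP6V1D and ATP6V1H spanned 1 in both comparisons. ATP6V1D, at 282, 186 and 180 counts, overlaps EIF2S1 (1459, 893 and 908 counts) and MPP5 (421, 257 and 299).

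The V0 sector held the member with the lowest ratio in SFE and the highest ratio of any V-ATPase gene there. ATP6V0A1, an isoform of the large subunit through which protons pass (chromosome 17, 42458844 to 42522611), stood at 4.43, 6.30 and 7.75 FPKM (ratios 1.42, 1.34 to 1.52, and 1.75, 1.65 to 1.86). Its relative ATP6V0A2, which is known from the Golgi, stood at 2.16, 2.44 and 2.33 FPKM. The level of ATP6V0A1 over ATP6V0A2, per kilobase of non-overlapping exon, was 3.60 with DMSO, 4.54 with SFA and 5.85 with SFE.

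The small membrane subunits e, made by ATP6V0E1 and ATP6V0E2, also moved unequally. ATP6V0E2 (chromosome 7, 149872968 to 149880698) had 916, 415 and 410 counts, or 3.92, 2.45 and 2.42 FPKM (0.623, 0.554 to 0.701, and 0.616, 0.547 to 0.692). Both ratios of counts are past 1.5-fold, while log2(FPKM + 1) left it uncalled at this low level. ATP6V0E1 stood at 42.8, 45.7 and 46.6 FPKM (1.07, 1.006 to 1.13, and 1.09, 1.03 to 1.15). Per kilobase of non-overlapping exon, ATP6V0E1 was 11.7 times ATP6V0E2 with DMSO, 19.99 times with SFA and 20.6 times with SFE. An antisense gene, ATP6V0E2-AS1, overlaps ATP6V0E2 at 74, 61 and 78 counts, and without known strand their reads cannot be told apart.

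The ring subunits and ATP6V0D1 stood above DMSO in both treated libraries, none of them called. ATP6V0C stood at 88.6, 116 and 108 FPKM (1.31, 1.25 to 1.37, and 1.22, 1.17 to 1.28). Its ring partner ATP6V0B stood at 11.4, 15.1 and 14.3 FPKM (1.33 and 1.25). ATP6V0D1, which links ring and rotor and whose promoter carries TCACGTGA, stood at 9.24, 11.5 and 12.9 FPKM (1.24, 1.17 to 1.32, and 1.40, 1.33 to 1.48). ATP6V0C was 4.42, 4.36 and 4.33 times ATP6V0B per kilobase of non-overlapping exon, a ratio that hardly differed among the libraries. Of the accessory proteins, which serve assembly, ATP6AP1 stood at 24.7, 27.5 and 28.2 FPKM (1.11, 1.06 to 1.17, and 1.14, 1.09 to 1.197). ATP6AP2, also called the prorenin receptor, stood at 11.9, 9.78 and 9.20 FPKM (0.818, 0.728 to 0.920, and 0.770, 0.683 to 0.867), below DMSO in both.

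Of the 6 lysosomal membrane proteins, 0 was called in either comparison. Of all genes, 5.36% were higher and 4.67% lower with SFA, and 5.34% and 3.48% with SFE, so 0 of 6 says little about the class. The sums below cover the same 6 proteins. Their summed share of counts was 1.11 times DMSO (1.08 to 1.14) with SFA and 1.06 (1.03 to 1.09) with SFE, and 0.9996 for SFE under median-ratio scaling. That scaling shifts the log2 ratio of every gene with SFE by −0.08. LAMP1, a heavily glycosylated protein of the lysosomal wall, stood at 23.0, 24.2 and 23.0 FPKM (1.05, 0.999 to 1.11, and 0.996, 0.945 to 1.05). LAMP2 stood at 12.8, 11.9 and 12.3 FPKM, and both intervals spanned 1. SCARB2, the carrier that brings glucocerebrosidase to the lysosome, stood at 6.07, 6.40 and 6.14 FPKM, again with intervals over 1. CD63, a tetraspanin of late endosomes, was higher at 40.0, 48.1 and 44.9 FPKM (1.202, 1.15 to 1.26, and 1.12, 1.07 to 1.18). So was NPC1, which exports cholesterol, at 6.34, 7.65 and 7.25 FPKM (1.21, 1.12 to 1.29, and 1.14, 1.06 to 1.23). MCOLN1, a calcium channel with the 2 TCACGTGA matches shown above, stood at 5.48, 6.12 and 5.58 FPKM (1.12, 0.995 to 1.25, and 1.02, 0.905 to 1.15). It overlaps PNPLA6 on the same strand, listed at 4777, 2544 and 2594 counts beside 660, 536 and 489 for MCOLN1.

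Among the hydrolases, the proteases CTSL and CTSD were called higher in both comparisons and the glycosidase GLA with SFA. Of 16 measured, that is 18.75% with SFA and 12.5% with SFE, against 5.36% and 5.34% of all genes. In each comparison 0 was lower, against 4.67% and 3.48%. These shares only describe genes chosen with results of these libraries in view. The 16 hydrolases at 1 FPKM or more had medians of 0.02 with SFA and 0.03 with SFE, close to all genes. Yet their 17 genes summed to 1.24 times DMSO (1.22 to 1.26) and 1.24 (1.23 to 1.26), and without CTSD to 1.10 and 1.12. The 7 proteases summed to 1.37 (1.35 to 1.39) and 1.35 (1.33 to 1.37). CTSD held 11094, 13420 and 12967 of their 27583, 27491 and 27036 counts, and the proteases were not summed without it. The 7 glycosidases summed to 1.002 (0.974 to 1.03) and 1.02 (0.995 to 1.05), and without GLA, a sum added after seeing the data, to 0.857 (0.829 to 0.886) and 0.945 (0.915 to 0.976).

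CTSL, a cysteine protease (chromosome 9, 87725519 to 87731393), had the highest ratio of the 45 genes in both comparisons and overlaps no listed gene. It stood at 7.92, 15.3 and 15.2 FPKM, or 674, 946 and 942 counts (1.93, 1.75 to 2.13, and 1.92, 1.74 to 2.13). Of all genes, 97.9% lay below it with SFA and 97.95% with SFE. CTSD (chromosome 11, 1752752 to 1763992) stood at 109.9, 183 and 177 FPKM (1.66, 1.62 to 1.71, and 1.61, 1.57 to 1.65). Genes overlapping CTSD held 305, 339 and 260 counts beside its 11094, 13420 and 12967. CTSC, which activates serine proteases, stood at 17.1, 21.8 and 22.8 FPKM (1.27, 1.22 to 1.33, and 1.33, 1.28 to 1.39), and CTSB, a cysteine protease, at 12.7, 16.1 and 15.2 FPKM (1.27, 1.22 to 1.33, and 1.203, 1.15 to 1.26). The rest of the proteases were not higher alike: CTSA stood at 23.5, 22.4 and 23.5 FPKM, CTSZ at 20.8, 19.1 and 19.3, and TPP1 at 3.73, 4.21 and 3.29.

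GLA, the alpha-galactosidase missing in Fabry disease (chromosome X, 101397803 to 101407925), stood apart from the other glycosidases. It stood at 26.4, 45.1 and 37.1 FPKM (1.71, 1.60 to 1.81, and 1.41, 1.32 to 1.497). A read-through gene overlaps it on the other strand at 43, 41 and 43 counts, beside 1906, 2362 and 1947 for GLA. NEU1, a sialidase, was lower with SFA only by value: 11.03, 7.92 and 11.3 FPKM (0.718, 0.663 to 0.777, and 1.02, 0.952 to 1.10). GLB1, a beta-galactosidase, stood at 20.3, 17.3 and 19.3 FPKM and GAA, which degrades glycogen, at 12.4, 10.9 and 10.3. The intervals of GUSB, HEXA and MANBA spanned 1 in both comparisons. Among lipid and thioester hydrolases, PPT1, which removes fatty acids from proteins, stood at 32.4, 34.2 and 39.7 FPKM (1.05, 1.005 to 1.11, and 1.22, 1.17 to 1.28). SMPD1, the acid sphingomyelinase, was 1.15 (1.03 to 1.29) and 0.967 (0.860 to 1.09) times DMSO, and both intervals of LIPA, the acid lipase, spanned 1.

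PSAP (chromosome 10, 71816298 to 71851375) was the most counted member and was low in 1 library. It had 23072, 17470 and 11322 counts, or 225.0, 234 and 152 FPKM. The ratio was 1.04 (1.02 to 1.06) with SFA and 0.675 (0.660 to 0.690) with SFE. The difference of −0.56 with SFE stopped just short of the 1.5-fold limit, and PSAP overlaps no listed gene. Summed over all 45 genes the ratio to DMSO was 1.15 (1.14 to 1.16) and 1.09 (1.08 to 1.10). NPC2, which hands cholesterol to NPC1, stood at 11.8, 12.4 and 11.005 FPKM, with both intervals over 1.

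The transcription factors of the CLEAR element were not higher at the RNA level in the SFA library. TFE3 (chromosome X, 49028726 to 49043486), which overlaps no listed gene, had 2858, 1158 and 2259 counts, or 21.5, 12.0 and 23.3 FPKM. It was 0.557 times DMSO (0.520 to 0.597) with SFA, the lowest ratio of the 45 genes there, and 1.09 (1.03 to 1.15) with SFE. TFEB stood at 2.94, 2.26 and 2.30 FPKM (0.769, 0.664 to 0.889, and 0.782, 0.675 to 0.904), lower in both treated libraries. Their relatives MITF and TFEC stood at 0.541 FPKM at most and at 0.

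The rest of the pathway was read from 6 lists, on trafficking, further enzymes and membrane proteins, and control by mTORC1, the kinase complex that holds TFEB in the cytosol. Of 152 genes found, 122 reached 1 FPKM, and 3 were called higher and 5 lower with SFA, 5 higher and 1 lower with SFE. Of all genes, 5.36% were higher and 4.67% lower with SFA, and 5.34% and 3.48% with SFE. Medians were 0.02 and 0.03, as for all genes, and the summed counts were 0.990 (0.983 to 0.997) and 1.015 times DMSO. For mTORC1 and TFEB control, 0 of 20 genes was called in either comparison, and the 4 with the largest differences were TSC2, RHEB, LAMTOR5 and LAMTOR4. TSC2, an mTORC1 inhibitor, stood at 10.4, 7.76 and 9.02 FPKM. Of further V-ATPase genes, 0 of 6 was called. In each comparison 3 of the 6 lay above 0 and 3 below, with medians of 0.018 and −0.002. Summed over the 12 genes found, counts were 0.894 times DMSO (0.858 to 0.932) with SFA and 0.969 (0.930 to 1.009) with SFE. The summed rise of the 18 V-ATPase genes of the set was thus not shared by this list. The assembly factors CCDC115, VMA21 and TMEM199 and the associated protein TMEM9 had the largest differences, with VMA21 at 18.0, 15.3 and 14.9 FPKM. Tissue-restricted isoforms ATP6V0A4, ATP6V0D2, ATP6V1B1, ATP6V1C2, ATP6V1G2 and ATP6V1G3 were at most 0.506 FPKM, while TCIRG1, an isoform of the large V0 subunit, stood at 5.14, 4.98 and 5.25.

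Among further hydrolases, 3 of 29 were lower with SFA and 1 with SFE, and 0 was higher in either, beside 4.67% and 3.48% of all genes lower and 5.36% and 5.34% higher. ARSB, a sulfatase of dermatan sulfate, stood at 4.64, 1.55 and 2.07 FPKM (0.334, 0.283 to 0.392, and 0.447, 0.386 to 0.515). NAGLU, a glucosaminidase of heparan sulfate, stood at 6.97, 4.29 and 6.13 FPKM (0.615 and 0.879). ARSB was thus low in both treated libraries, NAGLU in that of SFA. IDS, a sulfatase of heparan and dermatan sulfate, stood at 2.89, 4.17 and 4.38 FPKM (1.44 and 1.51).

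Of 29 further membrane proteins, 2 were higher in each comparison, or 6.90%, beside 5.36% (SFA) and 5.34% (SFE) of all genes. In each comparison 0 was lower, beside 4.67% and 3.48%. SLC29A3, a nucleoside carrier, stood at 1.40, 2.88 and 3.31 FPKM (2.06, 1.57 to 2.70, and 2.37, 1.82 to 3.09). PQLC2, a carrier of cationic amino acids, stood at 1.49, 3.14 and 3.02 FPKM (2.11, 1.69 to 2.64, and 2.03, 1.62 to 2.54). ABCA2, a lipid transporter, was 0.655 and 0.766 times DMSO, and LITAF, a late endosomal protein, 0.665 and 0.844. In enzyme delivery, 1 of 20 genes was higher in each comparison, or 5%, close to the share of all genes. With SFA 1 was lower and with SFE 0. CLTA, a clathrin light chain, was 1.66 and 1.65 times DMSO and called in both. GNPTAB, which starts the mannose 6-phosphate tag, stood at 6.64, 3.66 and 4.10 FPKM (0.551, 0.501 to 0.607, and 0.618, 0.563 to 0.678), called lower with SFA and just inside the limit with SFE. AP1S1 and VPS29, parts of sorting coats, were 1.505 and 1.47 times DMSO with SFA and 1.34 and 1.34 with SFE, neither called. The HOPS and positioning list covers fusion with endosomes and movement along microtubules. Of its 18 genes, 0 was higher and 1 lower with SFA, beside 5.36% and 4.67% of all genes. With SFE 2 were higher and 0 lower, beside 5.34% and 3.48%. VPS39 was called higher with SFE (3.73, 5.49 and 7.16 FPKM). VPS41 was called lower with SFA (2.15, 0.909 and 1.90 FPKM). RILP, an adaptor to dynein, was called higher with SFE at 2.23, 3.75 and 3.90 FPKM, and the motor KIF5B stood at 11.1, 7.80 and 7.97.

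**Figure D4:**
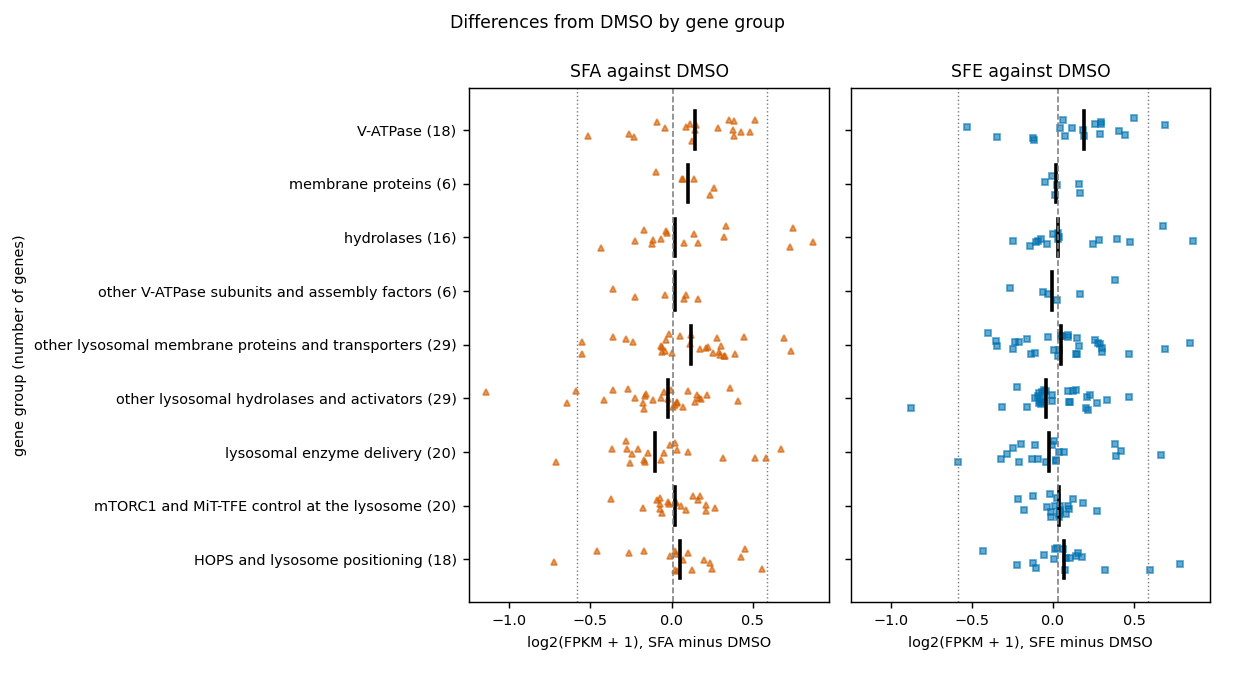
Difference from DMSO in log2(FPKM + 1) for the SFA library (left) and the SFE library (right), 1 point per gene at 1 FPKM or more in a library, for the 3 main classes and the 6 lists of other lysosomal genes, with vertical jitter. Black bars are medians, the dashed line is the median of all genes and dotted lines mark 1.5-fold; the V-ATPase median lies to the right of the dashed line in both panels, at 0.15 and 0.19.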

How the data were processed

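RNA of AGS cells was sequenced after rRNA removal in 1 library per group, per the labels' protocols. The tools StringTie 1.2.3 and HISAT2 2.0.4 and the build hg38 are named, per the submitters' processing notes. Their roles, the counter, its strand setting and the annotation release are not given in the sources used here. Raw counts, whole numbers per gene, and FPKM of each library were deposited by the authors, per the file headers. Coordinates are those of the deposited table; 98.5% of identifiers were found in GENCODE 29.

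The members and gene lists were chosen with earlier results of these data known. Genes were kept by the identifier with the highest mean FPKM. Differences are log2(FPKM + 1) of a treated library minus DMSO, over 11680 genes at 1 FPKM or more in a library; calls used 1.5-fold. Ratios are counts over library totals with exact conditional binomial 95% intervals (scipy 1.17.1, Python 3.11.15). On simulated counts for SFA against DMSO, 95.5% of intervals over 10027 genes above a minimum count covered the true ratio. Those counts were drawn with counting error only, as the intervals assume, so this checked the code and not the fit to real libraries. With 1 library per group the intervals cover counting error only. The labels name no molecular identifiers, so copies of 1 molecule may be counted as separate, and the intervals may be too narrow even for that. In bulk RNA, fewer cells of a type and less RNA per cell cannot be told apart. Of the 45 members, 24 overlap another listed gene, and since strand use is not known, their reads may be split with it.

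Named in full were members past 1.5-fold in either comparison, the 3 highest and the lowest by mean FPKM, and 25 set by name; of each further list, up to 4 with the largest difference, of which 1 is not reported here. Alternatives were the pseudocount, scaling, filters, identifiers and overlaps, and, chosen after seeing the data, the exon length.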

Additional observations from a re-analysis of the deposited data

How the results depend on the processing

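No paired analysis was possible because each group is 1 library. Of the members higher with SFA (3) and with SFE (3), the counts were 1 and 1 without overlapping genes, by construction, since CTSD, GLA and ATP6V0A1 overlap others whose counts are at most 2.75% of theirs. With a pseudocount of 0.1, 2 members were lower with SFA and 1 with SFE (ATP6V0E2 added), and 4 were higher with SFA (ATP6V1E2 added). With SFE, 2 were lower under median-ratio scaling and 1 per kilobase of non-overlapping exon. Shares of all genes called at these settings are not given, here or for the other lysosomal genes below. Whether all genes changed alike can thus not be read from these counts. Median-ratio scaling shifted the log2 ratio of FPKM by −0.03 (SFA) and −0.08 (SFE), less on the log2(FPKM + 1) scale for low genes, and turned the sign of 7 members with SFE, all near 0. The V-ATPase median with SFA was 0.32 at a filter of 5 FPKM in a library, against 0.03 over all genes at that filter. That filter leaves fewer genes and admits ATP6V0A1 only through its treated libraries.

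For the other lysosomal genes, 3 higher with SFA became 6 with a pseudocount of 0.1, 1 at 5 FPKM and 5 per kilobase of non-overlapping exon; 5 lower became 3 at 5 FPKM and 3 without overlapping genes. With SFE, 5 higher became 2 at 5 FPKM, and 1 lower became 2 with a pseudocount of 0.1, 2 under median-ratio scaling, 0 at 5 FPKM and 2 per kilobase of non-overlapping exon.

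Summed ratios under median-ratio scaling were 1.16 and 1.14 for V-ATPase genes, 1.21 and 1.18 for hydrolases, and 0.9996 for membrane proteins with SFE. Without overlapping genes they were 1.22 and 1.24, 1.09 and 1.18, and 1.02 and 0.990. Without the most counted member, hydrolases gave 1.10 and 1.12 and membrane proteins 1.07 and 1.02. Without GLA the glycosidases gave 0.857 and 0.945. The cause of these shifts was not tested. Depth limits MANBA (94 to 141 counts) and ATP6V1E2 (107 to 131) most.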
